A study of Homo sapiens with 3 samples.

Results

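GNAS is an imprinted gene on chromosome 20 (58839748 to 58911192 in hg38, a body of 71.4 kb on the plus strand, RefSeq annotation of GRCh38.p14). It was taken as 1 of the 9909 protein-coding genes that carry a listed chromatin loop end, and its loops were those of the authors' deposited table with an end on the gene body. A loop end was read as the 5 kb inward from the listed position. Of 279618 loops with a readable class, 79 met this rule. The gene was selected on its loop classes, which were known to include both gains and losses, so the counts at GNAS are a description and carry no test.

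The loops come from Hi-C, in which DNA ends that lie close together in fixed nuclei are joined and sequenced as pairs. It was applied to HCT116, a human colorectal carcinoma line, with 1 library in each of 3 groups. All groups lack p53 (HCT116 p53-/-). The wild-type group is this parental line, the ORC2 deletion group is 1 clone made from it with CRISPR/Cas9, and the ORC2 rescue group is a selected clone that expresses ORC2 again from a vector, so clonal differences and the genotype cannot be told apart. ORC2 belongs to the origin recognition complex, the protein assembly that binds DNA where replication may begin. The study asked which changes of chromosome structure depend on ORC2. The class words of the authors' deposited table are conserved gain, conserved lost and not conserved, called gained, lost and not conserved here. Which samples stand behind a class is not named, so no direction with respect to ORC2 is drawn, and not conserved is not read as unchanged. It holds no contact strength, read depth or replicate value, so depth is unknown, and it does not separate the parental alleles.

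GNAS encodes the stimulatory G protein alpha subunit, Gs alpha, which couples hormone receptors to adenylyl cyclase and so to cyclic AMP. Several alternative first exons are spliced to shared downstream exons. In order along the gene these are the exons of NESP55, of the extra-large protein XL alpha s, of the untranslated A/B transcript and of Gs alpha itself. NESP55 is transcribed from the maternal allele, XL alpha s, A/B and the antisense transcript GNAS-AS1 from the paternal allele, and Gs alpha from both alleles in most tissues. Deletions in the neighbouring gene STX16 are known to disturb the imprint at A/B.

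Of the 79 GNAS loops, the authors' deposited table classed 10 as lost, 1 as gained and 68 as not conserved. The lost loops all ran downstream to an interval without a protein-coding gene between EDN3 and PHACTR3. The single gained loop ran upstream to APCDD1L. The lost share at GNAS was 12.7% (95% Wilson interval 7.02 to 21.8%), beside 0.196% of all listed loops and 0.252% (0.172 to 0.369%) of the chromosome 20 loops that do not touch GNAS. The gained share was 1.27% (0.224 to 6.83%), beside 1.96% of all listed loops and 1.34% on chromosome 20 without GNAS. Such intervals reflect counting error alone and assume independent loops, whereas neighbouring loops share ends. Joined where both ends lay within 10 kb, the 10 lost loops formed 2 regions.

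**Figure D1:**
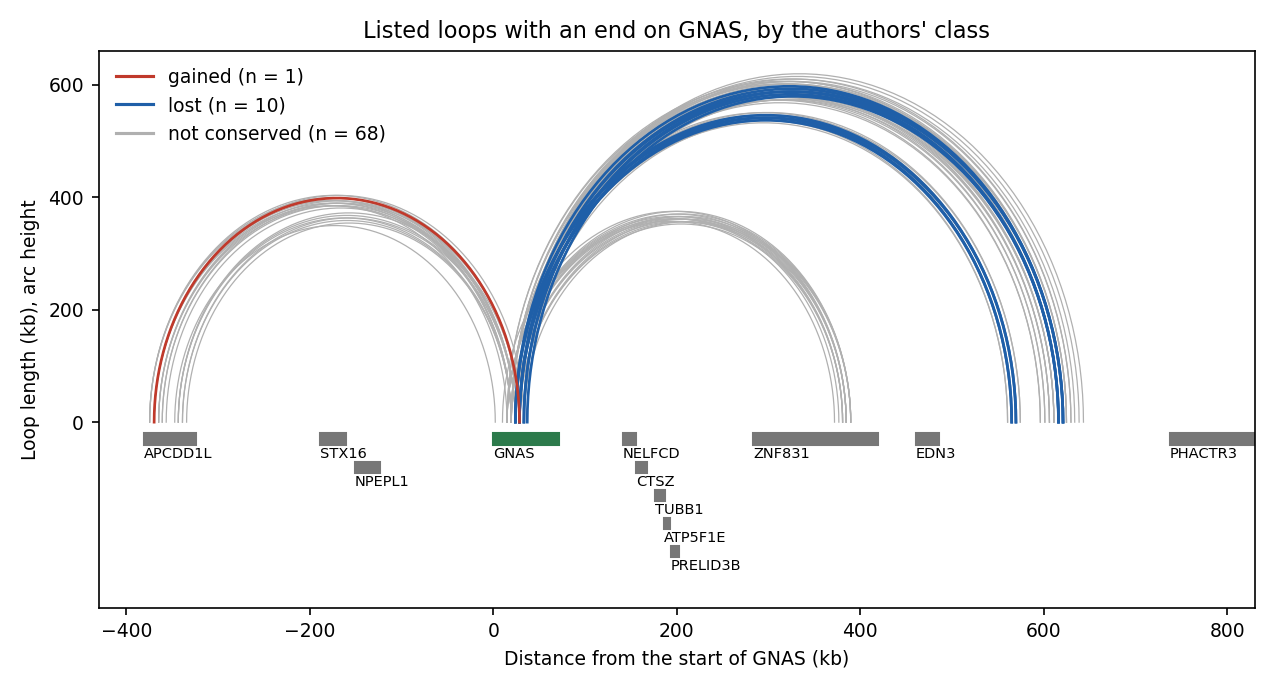
Each arc is a listed loop with an end on GNAS, drawn against the distance from the start of the gene (kb), with the height of the arc equal to the loop's length (kb) and the colour showing the authors' class; boxes below are gene bodies. The 21 loops to APCDD1L include the gained one, the 16 loops to ZNF831 are all not conserved, and the 10 lost loops lie among the 42 longest.

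The GNAS loops went to 3 places and to no other. The authors' deposited table listed 21 loops that joined GNAS to APCDD1L, a paralogue of the Wnt inhibitor gene APCDD1, on the upstream side. A further 16 loops joined it to ZNF831, a zinc-finger protein gene, and 42 to the interval between EDN3 and PHACTR3, both on the downstream side. No loop had both ends on GNAS. The shortest GNAS loop was 349 kb and the longest 619 kb, with a median of 536 kb, where the median over all listed loops was 234 kb and 28.3% of them were at least as long as the shortest GNAS loop.

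On the GNAS side, the loop ends lay in the first part of the gene and stopped before its last start sites. The lowest base of such an end was 58837010 and the highest 58881837, which is 42.1 kb into the gene, so the last 29.4 kb of the body held no listed end. Listed positions divide the stretch from 58849845 to 58876837 into adjacent segments of 3665 to 4997 bp. The segment after this stretch, 58876838 to 58881837, was given the 5 kb width of an end. So was a single segment before the stretch, at 58837010 to 58842009. No end was listed between 58842009 and 58849845. The segment at 58863924 to 58868393 held most loops in the authors' deposited table, 23, and its neighbours held 16 (58859442 to 58863923), 15 (58868394 to 58873172) and 13 (58854842 to 58859441). The segments at both margins held 1 loop (58837010 to 58842009), 2 loops (58849845 to 58854841), 6 loops (58873173 to 58876837) and 3 loops (58876838 to 58881837). Both the gained loop and 3 of the lost loops ended in the fullest segment.

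The table of RefSeq start sites gives 6 for GNAS, and loop ends reached the first 4 of them. The starts at 58839748, the first base of the gene, and 58841620 lay in the end of 1 listed loop, and the starts at 58852716 and 58852981 in the ends of 2. These loops were classed as not conserved. The starts at 58888413 and 58889180 lay in no listed end. Hi-C ends arise at DpnII sites, with the letters GATC, which read the same on both strands. In the 250 bases before each start, GATC occurred once before 58852716 and once before 58852981, and it did not occur in the windows of the other 4 starts. Over all 35116 such windows of the RefSeq promoter table, 35.8% held it. Both sites lie in the first segment reached by loops on both sides of the gene. The one before 58852716, the first along the gene, is shown, at chr20:58852484-58852513 (plus strand, GRCh38.p14), and capitals mark the DpnII letters.
GNAS DpnII site: actaggggcttgaGATCcggggctgcctgg

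Other transcripts overlap these ends. LOC101927932, a long non-coding RNA gene at 58863756 to 58888810 inside the GNAS body, lay at 63 of the 79 loop ends on the GNAS side, among them the gained loop and the 10 lost ones. Of these 63, the 16 in the segment at 58859442 to 58863923 reached only the start of LOC101927932, and all 16 were not conserved. GNAS-AS1, the antisense transcript at 58818918 to 58850902, lay at 3 of the 79 ends, and these 3 were not conserved. A loop end of 5 kb does not say which of the overlapping transcripts a contact belongs to. Just outside the body, the nearest listed end before GNAS finished at 58837714, 2.03 kb from the gene, and belonged to 1 loop of 377 kb from APCDD1L, classed as not conserved. After the gene the nearest listed end started 140 kb away.

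The upstream loops had 9 partner ends between 58465318 and 58510585, within the body of APCDD1L (58459101 to 58515399). Of these 21 loops, the authors' deposited table classed 20 as not conserved, with lengths of 349 to 403 kb and a median of 385 kb. The gained loop joined 58470208 to 58868393 and was 398 kb long, inside that range. Loops around it were not classed with it. The other 4 loops from the same APCDD1L end, and the other 4 upstream loops to the same GNAS end, were not conserved, as were 11 loops whose ends both lay within 10 kb of its own. The lost share here was 0 of 21, which allows up to 14.3% if loops are independent.

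The loops to ZNF831 had 5 partner ends at 59211746 to 59229419, inside that gene's body (59123388 to 59259113). All 16 were not conserved in the authors' deposited table, at 352 to 375 kb with a median of 361 kb. They started from 6 ends on GNAS, of which 3 (58863924, 58868394 and 58873173) also carried lost loops to the interval beyond EDN3. From the segment at 58863924, 3 loops went to ZNF831 and 15 to that interval. From 58868394 the counts were 3 and 11. A share of 0 lost of 16 allows up to 18.8% if loops are independent. The 12.7% of the whole gene, which includes these 16 loops, lies below this limit. The 23.8% of the GNAS loops to that interval lies above it. Neighbouring loops share ends, so no difference is read from these shares.

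The interval that held the lost loops spans 59395374 to 59483069, an 87.7 kb stretch with 15 partner ends. It lies after EDN3, which encodes the endothelin 3 ligand of neural crest cells, and before PHACTR3, a phosphatase and actin regulator gene. The only annotated gene in it is a pseudogene, PIEZO1P1. Of the 42 loops from GNAS to this interval, 10 were lost in the authors' deposited table, 23.8% (13.5 to 38.5%), and the other 32 were not conserved. Lost and not conserved loops to the interval were alike in length, with medians of 581 kb (536 to 597 kb) and 582 kb (532 to 619 kb).

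The lost loops had 4 partner ends in 2 pairs, 46.4 kb apart. By the classes of the authors' deposited table, the first pair, 59404838 and 59409467, took 4 lost loops, from GNAS ends 58863924 and 58868394. Their lengths were 541 and 546 kb from 58863924, and 536 and 541 kb from 58868394. These 4 make a full block of neighbouring pairs of ends. The second pair, 59455864 and 59460797, took 6 lost loops from 4 GNAS ends. To 59455864 they measured 587 kb from 58868394, 583 kb from 58873173 and 579 kb from 58876838. To 59460797 they measured 597 kb from 58863924, 592 kb from 58868394 and 588 kb from 58873173. This block is broken at 2 corners, since the pairs 58863924 with 59455864 and 58876838 with 59460797 were listed as not conserved.

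**Figure D2:**
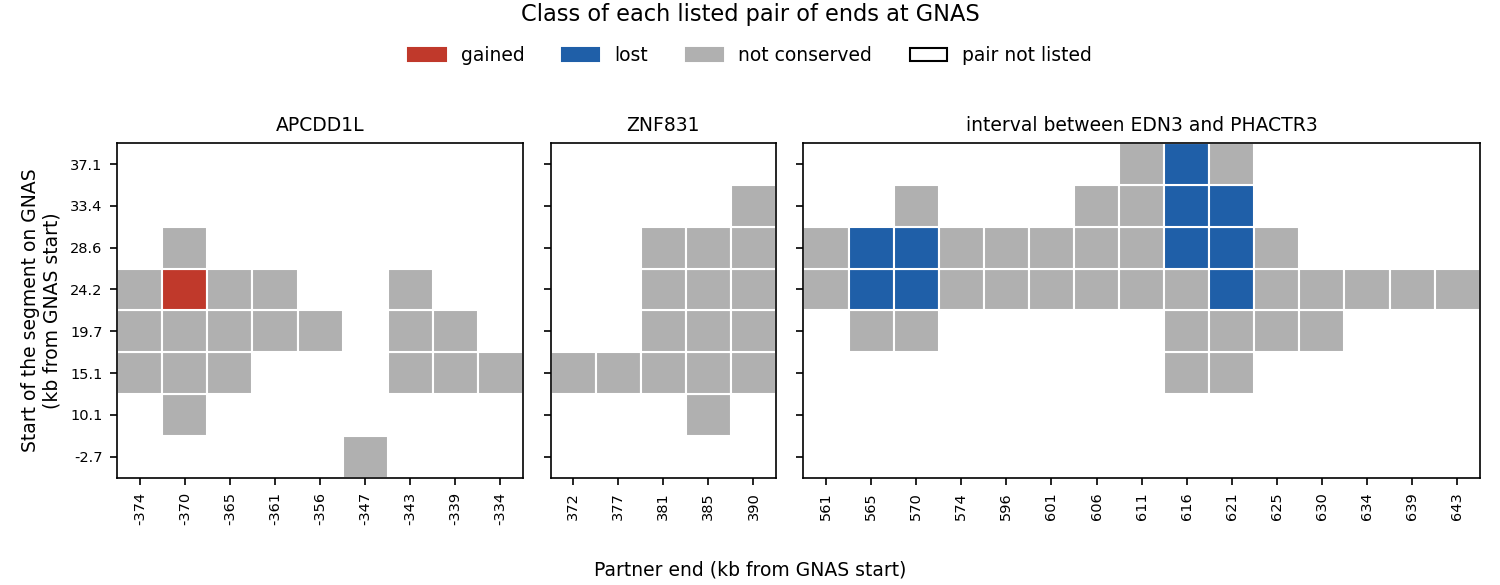
Each square is a listed pair of ends, with the start of the GNAS segment (kb from the start of the gene) on the vertical axis and the partner end (kb from the start of the gene, listed positions only and not to scale) on the horizontal axis, in 1 panel per partner; the colour is the authors' class and white pairs are not listed. The 10 lost pairs form 2 blocks in the right panel, at partner ends 565 and 570 kb and 616 and 621 kb from the start of GNAS.

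Between and around these blocks the GNAS loops to the interval were not conserved. The ends are grouped here by whether they carry a lost loop, so the other groups are without losses by definition. By the same deposited classes of the authors, the 5 partner ends that lie between both pairs had 13 GNAS loops, all not conserved. The 6 partner ends beyond them had 10, all not conserved. The 4 partner ends with losses had 19 GNAS loops, 10 of them lost. On the GNAS side, 34 loops to the interval came from the 4 ends with a loss, and 24 of these loops were not conserved. The 8 loops from the ends before these, at 58854842 (2 loops) and 58859442 (6 loops), were not conserved. From 58863924 onward the lost counts were 3 of 15, 4 of 11, 2 of 5 and 1 of 3. The 16 pairs that the 4 GNAS ends and 4 partner ends allow held 13 listed loops, 10 lost and 3 not conserved. These ends were picked for their losses, so the counts give positions and do not measure a concentration.

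At this interval lost loops were listed from GNAS alone, but the other loops there were shorter. The authors' deposited table gave 127 loops an end in it. The 85 that do not reach GNAS held 0 gained and 0 lost, which allows up to 3.53% of either class if loops are independent. The shares over all listed loops, 1.96% gained and 0.196% lost, lie below this limit, so nothing particular to these 85 is read from the counts of 0. Of these 85, 34 came from ZNF831, at 166 to 254 kb, and 51 from ends without a protein-coding gene, at 301 to 397 kb. GNAS, ZNF831 and the interval were thus joined pairwise by listed loops, and the losses lay on the longest of these 3 sides. Beside 0.196% lost over all listed loops, 0 lost of 16 and of 34 on the shorter sides is not read as a difference. The partner interval at ZNF831 had 49 further loops and that at APCDD1L 75, again with 0 gained and 0 lost. Among the APCDD1L loops, 20 reached NPEPL1, a putative aminopeptidase gene, and 10 reached STX16, a Golgi syntaxin gene.

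Several genes between GNAS and its partners had no listed end of their own. NELFCD, a subunit of the negative elongation factor, CTSZ, the lysosomal protease cathepsin Z, TUBB1, a platelet beta-tubulin, ATP5F1E, a subunit of ATP synthase, and PRELID3B had no listed end. Each of these 5 genes was spanned by 58 loops of the authors' deposited table, and all 58 started on GNAS. On the upstream side STX16 was spanned by 55 loops, 21 of them from GNAS, and NPEPL1 by 31, again 21 from GNAS. STX16 had 10 listed ends and NPEPL1 20, none shared with GNAS and none gained or lost. ZNF831 was itself spanned by 42 GNAS loops and had 92 listed ends, 16 of them shared with GNAS.

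**Figure D3:**
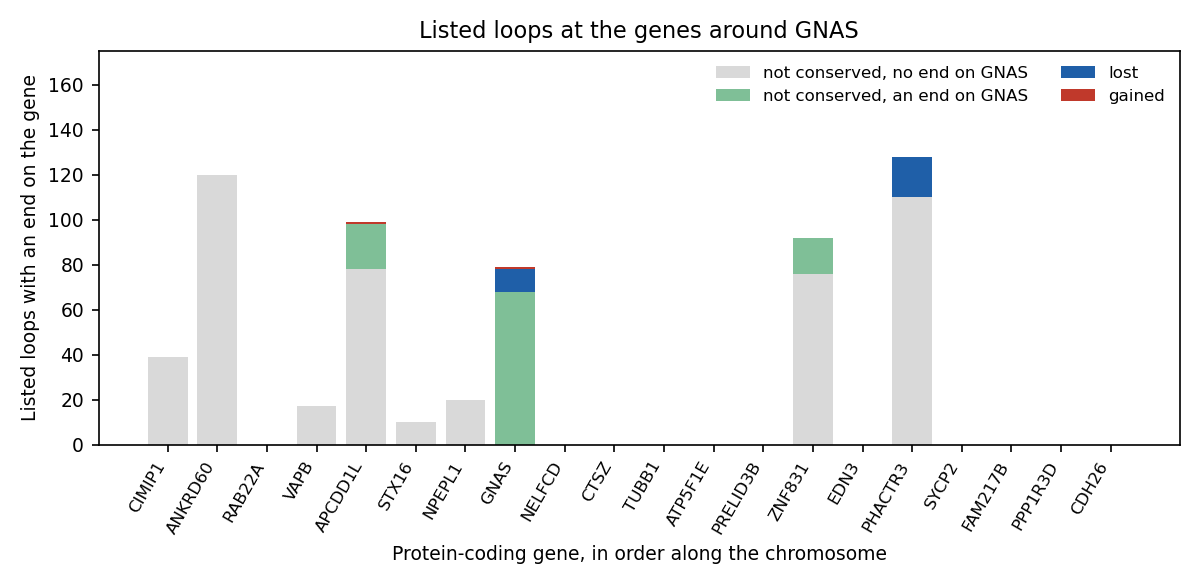
Bars count the listed loops with an end on each named protein-coding gene between 58 and 60 Mb of chromosome 20, in order along the chromosome, divided by class and by whether the other end is on GNAS; a gene known only as LOC124904942, with 2 loops, is left out. Lost loops appear at GNAS (10) and PHACTR3 (18) and the gained loop at both of its ends, APCDD1L and GNAS.

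Of the 21 protein-coding genes between 58 and 60 Mb, 10 had a listed end and 11 had none. By the authors' deposited table, 2 of the 10 had a gained end, which is the 1 loop joining APCDD1L and GNAS, and 2 had a lost end, GNAS and PHACTR3. Over all 9909 genes with a listed end, 12.7% had at least 1 gained end and 1.85% at least 1 lost end. PHACTR3 had 18 lost of 128 listed loops and shared none with GNAS. Its lost loops began at 59567834, which is 84.8 kb past the last partner end of GNAS. The GNAS and PHACTR3 losses together made up the 28 lost loops among the 1179 that touch these 2 Mb. GNAS held 0.759% of the listed loops of chromosome 20 and 10 of its 36 lost ones, or 27.8%.

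The GNAS losses were long for their class, but not longer than the not conserved loops from GNAS to the same interval (median 582 kb). In the authors' deposited table lost loops had a median length of 222 kb over the genome and 211 kb on chromosome 20, and 581 kb at GNAS. Of 39 lost loops of 500 to 1000 kb in the whole table, 10 were at GNAS, or 25.6%, though these 10 joined into 2 regions. Of all 32112 listed loops of this length, 0.121% (0.0889 to 0.166%) were lost, and at GNAS 10 of 42. The 37 GNAS loops under 500 kb held the gained loop and 0 lost, which allows up to 8.11% if loops are independent.

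Among genes with many listed loops, few had a lost share as high as that of GNAS, while many had a gained share as high. At least 50 loops of the authors' deposited table ended on each of 1810 protein-coding genes. GNAS was among the 9 with a lost share of 12.7% or more (0.497% of these genes), and 17 genes of any loop number had more lost loops than GNAS. A gained share of at least 1.27% was found at 417 of the 1810 genes, or 23.0%. Of the 10 genes with both classes, TMEM132E had more lost loops (25 of 328, with 126 gained), and the other 8 had at most 3. At RUNX1 the counts were 26 gained and 2 lost of 111, at RNF213 27 and 3 of 377, and at RPTOR 4 and 3 of 867, and among the 10 losses outnumbered gains only at GNAS and at GSN (1 gained and 2 lost of 68).

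**Figure D4:**
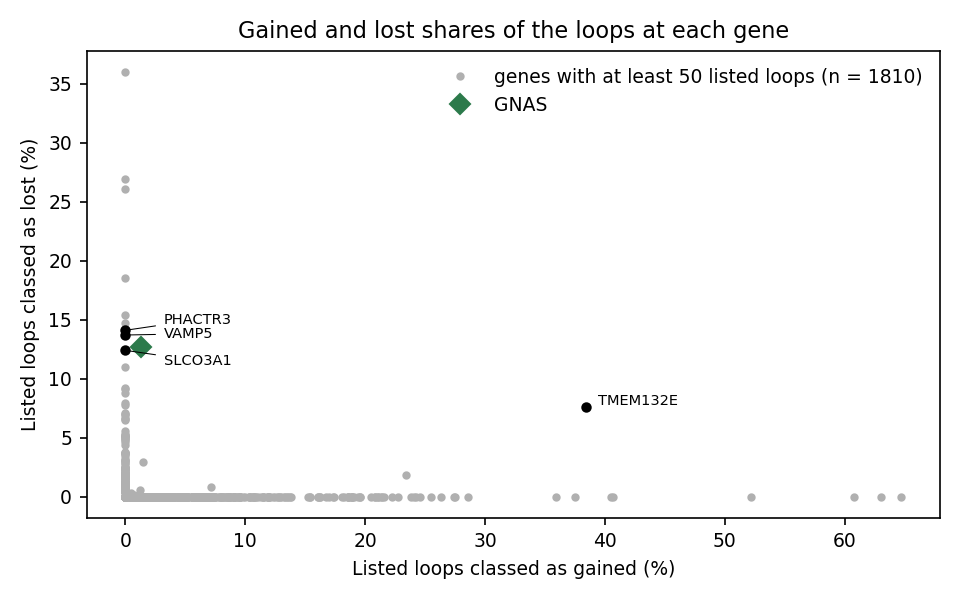
Each point is a protein-coding gene with at least 50 listed loops (n = 1810), placed by the percentage of its loops classed as gained (horizontal) and lost (vertical). GNAS (1.27% gained, 12.7% lost) lies beside the axis of genes with losses and no gains, while TMEM132E has 38.4% gained and 7.62% lost.

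The genes with the pattern most like that of GNAS were found by the sum of the absolute differences in gained and lost share, over 1807 genes that share no loop with it. They were SLCO3A1, an organic anion transporter gene on chromosome 15 (24 lost of 193, a sum of 1.49 percentage points), VAMP5, a vesicle membrane protein gene on chromosome 2 (7 of 51, 2.33 points), and PHACTR3 (2.67 points). None of these 3 had a gained loop.

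Among the other imprinted genes 1 had lost loops, and among the other genes of the Gs and cyclic AMP pathway none had. Of 48 further imprinted genes matched in the annotation, 30 had a listed end, with a median of 28 listed loops. By the authors' deposited table, 1 of the 30 had a gained end, KCNK9, a potassium channel gene (3 of 54 loops). Another had a lost end, SLC67A1, a transporter gene long known as SLC22A18 in the imprinted domain of chromosome 11 (2 of 159 loops). IGF2 had 108 listed loops, H19 26, KCNQ1 519, MEG3 143, SNRPN 99 and GRB10 72, without a gain or a loss. Of 45 further pathway genes 32 had a listed end, with a median of 17.5 listed loops, and 2 had a gained one. These were GNAI3, an inhibitory G protein alpha subunit (7 of 16), and PDE4B, a phosphodiesterase that degrades cyclic AMP (1 of 202). The kinase regulatory subunit genes PRKAR1A (153) and PRKAR1B (291) and the adenylyl cyclase gene ADCY8 (66) had listed loops and neither class. Of all protein-coding genes with a listed end, 12.7% had a gained end and 1.85% a lost one. The imprinted list is not limited to such genes, and it includes GNAS-AS1, which shares 3 of its 6 loops with GNAS. Beside these shares, counts of 1 and 1 among 30 imprinted genes and of 2 and 0 among 32 pathway genes are small. Nothing particular to either list is read from them.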

How the data were processed

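Per the labels' protocols, chromatin of 3 HCT116 p53-/- samples was cut with DpnII and ligated after biotin labelling. Bowtie and 2 builds, hg19 and hg38, appear in the submitters' processing notes with no role stated. The authors deposited a list of loops with 2 positions and a class word each (unit: other, a word with no number), with hg38 positions according to its name. For the loop caller, contact normalisation, thresholds and samples compared, the answer is not given in the sources used here. Without a coverage correction, a copy-number difference between clones would enter the classes; whether one was made was not tested.

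Of 279669 rows, 49 had no class word (0 of them at GNAS) and 2 were repeats. Counts were made with Python 3.11.15, pandas 2.3.3 and statsmodels 0.14.6. Limits for a count of 0 are those of 3 counts and assume independent loops, whereas neighbouring loops share ends. The overlap and joining steps were tested on simulated data. With 1 library a group, no test was possible. The 6 compartment columns, S1 to S3, match no sample label and were not used, so no compartment score is given.

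Genes named were all partners of gained or lost GNAS loops, the partners with most loops, neighbours at 58 to 60 Mb and list members with a gained or lost end, and the 3 most alike genes. The large imprinted and pathway genes, and the other genes with both classes, were named after their values were seen. The members and lists were chosen with earlier results of these data known. All 49 imprinted and 46 pathway symbols matched, 2 of them through an older symbol.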

Additional observations from a re-analysis of the deposited data

How the results depend on the processing

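Of 41 recomputed values over 6 settings, all planned, 34 kept within 1.5 times a count, inside the Wilson interval of a share or inside the interval of a median, and 7 did not. Ends read as the listed position alone or 10 kb inward, leaving out loops under 100 kb and leaving out loops with both ends on GNAS gave the same 79 listed, 10 lost and 1 gained loops; the last 2 settings remove no GNAS loop. Counting only ends on the right part of the gene, past its midpoint, left 9 listed loops, 3 lost and 0 gained. The lost share was then 33.3%, the gained share 0 and the not conserved median 573 kb. Fewer ends lie there, and all but 1 of the 9 loops ran to the interval between EDN3 and PHACTR3, with 0 to APCDD1L. No gained median could be given in that setting. Joined into regions, the lost loops numbered 2. No paired analysis was possible because there is 1 library per group and a loop has no value per sample. What depth limits could not be examined, since depth is unknown.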

Other observations

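No listed loop passed over the GNAS body with both ends outside it. In the authors' deposited table this held for 32.5% of the 1810 genes with at least 50 listed loops, and for 49.9% of the 981 such genes with a body at least as long as GNAS, so the absence is common among genes of this kind. PHACTR3 and APCDD1L also had 0 spanning loops. EDN3 had no listed end and was spanned by 132 loops, 42 of them from GNAS and 90 from other ends.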
